A study of Mus musculus with 9 samples.

Results

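The 31 genes described here are the mouse semaphorins (20 genes), the plexins (9) and the neuropilins (2), out of 21887 protein-coding genes of the main chromosomes. They were chosen by name and not by a limit on a measured value, but with earlier results of these data known. All 31 were found in the gene table. Chromatin immunoprecipitation followed by sequencing (ChIP-seq) with an antibody against the bHLH transcription factor TWIST1 was carried out on embryoid bodies grown from mouse embryonic stem cells after 3 days of differentiation toward neuroepithelium. The overexpressing cells (OE, 4 ChIP libraries) were an A2loxcre line that was Twist1-/- and carried a doxycycline-inducible Flag-Twist1, so the protein mapped came from an induced transgene and not from the endogenous gene. The control cells (KO, 2 ChIP libraries, numbered 2 and 3, and 1 input library of unprecipitated DNA) were Twist1-/- without the inducible cassette. Both received doxycycline for 16 h. Another 2 OE input libraries were not analysed here. The strain is labelled C57BL/6. Whether either line is a single clone is not given in the sources used here, and peak lists hold no expression values against which the cell type could be checked.

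Semaphorins are guidance ligands. Those of class 3 are secreted, those of classes 4, 5 and 6 span the membrane, and Sema7a is held there by a lipid anchor. Plexins are their receptors, single-pass proteins whose inner part acts on small GTPases. Neuropilins bind most class 3 semaphorins and pass the signal on through plexins of class A, and they also bind VEGF. In the embryo these proteins steer axons, blood vessels and the neural crest, a migratory population in which TWIST1 is expressed.

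Each library came as its own list of peaks, each with the authors' fold enrichment over local background, so all folds below are the authors' values for single peaks. An OE list held 14160 to 106821 peaks, the KO lists 104 and 71, and the input list 1774. Read totals were not used here. The commonest background level, a number of overlapping fragments recovered from fold and p-value, is given in their place as a measure of depth. OE libraries 1 and 4 stood apart at 1.00 and 1.20. OE libraries 2 and 3 were at 5.38 and 5.29, near the KO libraries at 4.73 and 5.09. Since depth differs, a fold is best read within its own list. The percentile given with some folds is its rank from the lowest, in percent of that library's peaks. Tied folds were given their mean rank.

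A peak was counted for every gene whose body held its summit. A peak outside all genes was counted for the closest one, up to 100 kb away. Of the 31 genes, 23, 31, 31 and 24 had a peak in OE libraries 1, 2, 3 and 4. Among all protein-coding genes 47.2%, 80.6%, 77.5% and 37.4% had one in these libraries. The genes held 67, 308, 257 and 52 peaks in OE libraries 1 to 4, which was 0.289% to 0.369% of each list. Neither KO library had a peak at any of the 31 genes. In the KO libraries 0.21% and 0.0959% of all genes had a peak, so the absence of KO peaks at 31 genes is near that background. In the KO input 1 of the 31 genes had a peak, Sema5b, against 5.28% of all genes. The mean number of the 31 genes with a peak was 27.25 ± 4.35 in OE (SD, n = 4) and 0 in both KO libraries, a difference with p = 0.0667 by exact permutation, two-sided, over 15 splits. That is the smallest p this design allows, over libraries and not genes. With so few KO peaks, most sets of 31 genes would give 0 in both KO libraries. The p therefore says nothing particular to this family. For the number of peaks at the 31 genes the means were 171 in OE and 0 in KO, with p = 0.133 by the same exact permutation.

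**Figure D1:**
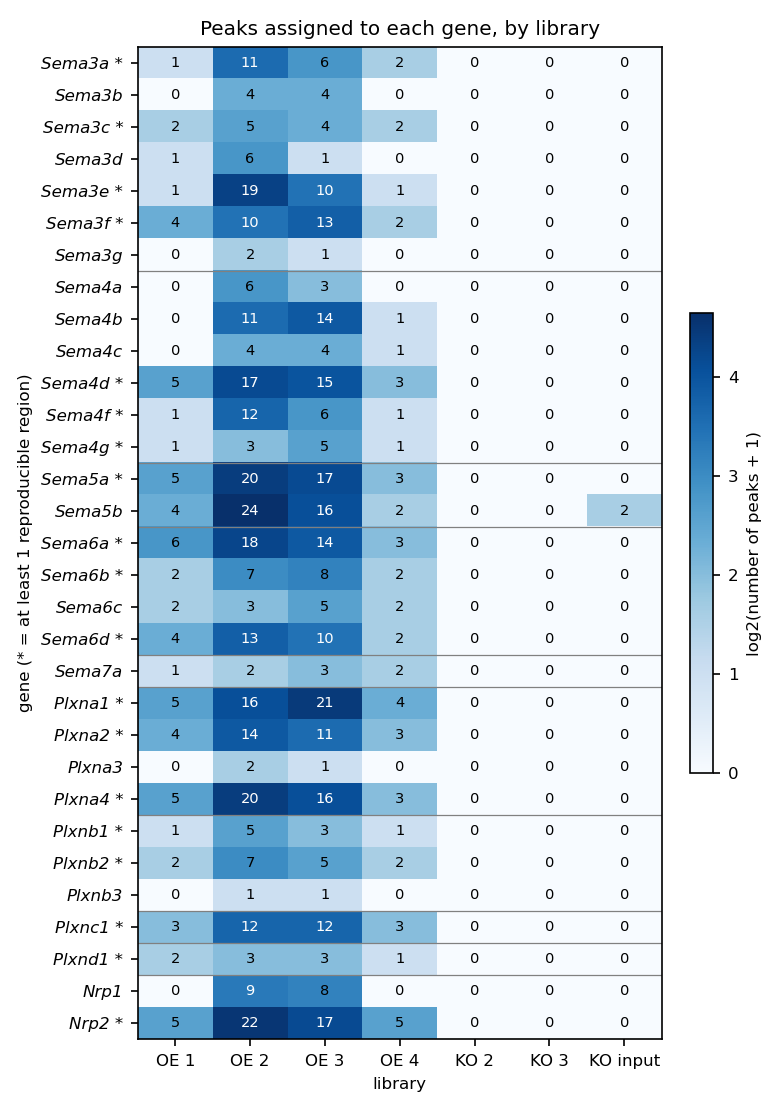
Number of peaks assigned to each of the 31 genes (rows, grouped by class) in each of the 7 libraries (columns), with the colour on a log2(number + 1) scale; an asterisk marks genes with a reproducible region. OE libraries 2 and 3 had a peak at all 31 genes, OE libraries 1 and 4 at 23 and 24, the KO libraries at none, and the KO input had 2 peaks at Sema5b.

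A region was called reproducible when peaks of all 4 OE libraries were merged in it and no KO or input peak overlapped it. By this rule 19 of the 31 genes had at least 1 region (61.3%), against 30.3% of all protein-coding genes. Plexins had a region in 7 of 9 cases, semaphorins in 11 of 20 and neuropilins in 1 of 2. Together they held 36 regions, 29 inside a gene body and 7 outside. Many of these genes are long. The territory of a gene, meaning all positions at which a summit would have been counted for it, had a median of 100.0 kb in this family and of 46.0 kb over all genes. When all genes were split by territory width into 10 groups of equal size, and the shares of these groups were weighted by the family's membership, 38.9% had a region. Weighted in the same way, the share was 36.8% for plexins, 38.0% for semaphorins and 58.0% for neuropilins. Per Mb of territory there were 5.79 regions in this family and 4.97 over all genes. In the widest of the 10 groups 10 of 12 family members had a region, against 58.0% of all genes there. Whether the family's share differs from that of other genes was not tested. The number of genes followed the libraries used: it was 30 of 31 from OE libraries 2 and 3 alone, against 74.4% of all genes, and 13 of 31 when the 4 lists were cut to equal length, against 15.7%.

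**Figure D2:**
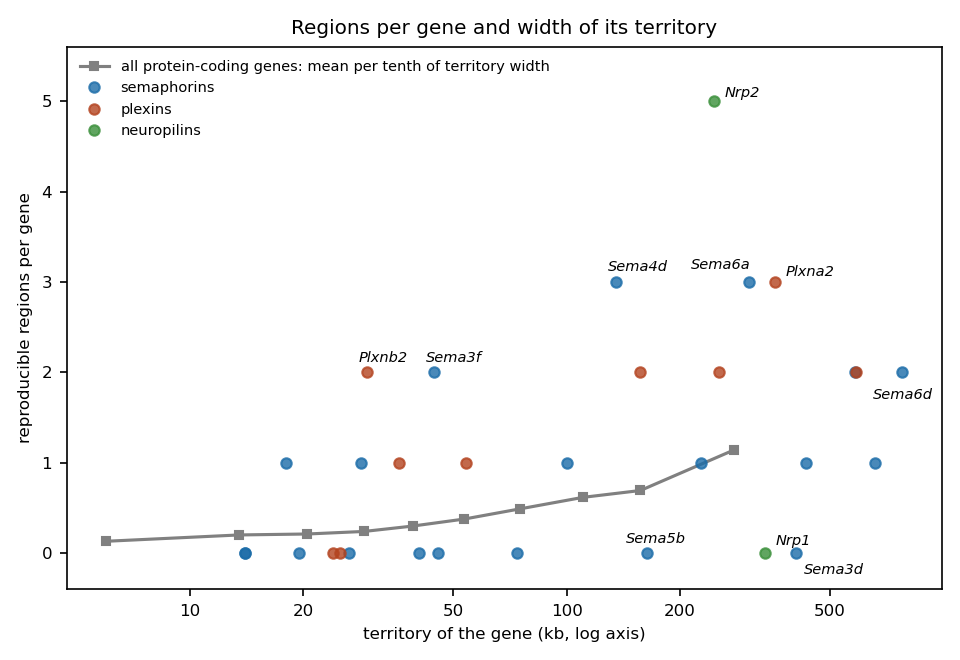
Reproducible regions per gene (y axis) against the width of the gene's territory in kb (x axis, log scale) for the 31 genes, with the mean over all protein-coding genes in each of 10 equal groups of territory width in grey. Nrp2 stands highest with 5 regions, while Nrp1 and Sema3d, with territories of 337 and 405.5 kb, have none.

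Promoter sequences are shown for the genes whose start was covered by a region, because letters were given for promoter windows alone. Covered means inside the merged extent of a region, which the peaks of single libraries need not reach. RefSeq (GRCm38.p6) windows from 250 bases before to 50 after a start site matched 26 of the 31 genes, with 37 windows. Of these windows 8, of 7 genes, lay wholly inside a reproducible region (21.6%, against 13.6% of 21263 windows of protein-coding genes). The 6 with the highest mean percentile of fold follow, in order of it. Capitals mark the E-box CANNTG, the motif of bHLH factors, a pattern that reads the same on both strands.
Plxnb2, inner start (chr15:89173902-89174201, minus strand): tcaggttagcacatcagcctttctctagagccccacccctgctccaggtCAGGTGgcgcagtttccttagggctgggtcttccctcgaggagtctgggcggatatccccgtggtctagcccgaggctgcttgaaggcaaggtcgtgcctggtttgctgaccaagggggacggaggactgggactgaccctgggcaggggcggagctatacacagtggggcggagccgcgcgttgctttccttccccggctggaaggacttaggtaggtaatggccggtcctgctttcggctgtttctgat
Plxna2 (chr1:194619579-194619878, plus strand): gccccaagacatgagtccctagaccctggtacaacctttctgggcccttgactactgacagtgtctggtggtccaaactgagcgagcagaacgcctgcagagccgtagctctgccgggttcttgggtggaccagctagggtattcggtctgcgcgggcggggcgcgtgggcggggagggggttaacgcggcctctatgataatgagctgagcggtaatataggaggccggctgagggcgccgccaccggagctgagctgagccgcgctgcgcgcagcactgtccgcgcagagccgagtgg
Sema4g (chr19:44989094-44989393, plus strand): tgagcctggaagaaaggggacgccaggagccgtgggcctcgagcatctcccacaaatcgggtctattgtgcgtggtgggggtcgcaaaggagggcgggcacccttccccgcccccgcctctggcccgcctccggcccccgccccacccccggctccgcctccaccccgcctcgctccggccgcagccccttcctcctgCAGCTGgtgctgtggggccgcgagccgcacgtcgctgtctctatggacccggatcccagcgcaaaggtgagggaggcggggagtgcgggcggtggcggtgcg
Nrp2 (chr1:62703067-62703366, plus strand): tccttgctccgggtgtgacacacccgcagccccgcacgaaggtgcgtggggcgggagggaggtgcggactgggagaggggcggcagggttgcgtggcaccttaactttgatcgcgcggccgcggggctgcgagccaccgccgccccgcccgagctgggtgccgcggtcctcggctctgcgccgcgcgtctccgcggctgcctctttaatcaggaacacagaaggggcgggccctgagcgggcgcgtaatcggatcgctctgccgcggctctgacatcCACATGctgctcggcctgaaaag
Plxnb1 (chr9:109095186-109095485, plus strand): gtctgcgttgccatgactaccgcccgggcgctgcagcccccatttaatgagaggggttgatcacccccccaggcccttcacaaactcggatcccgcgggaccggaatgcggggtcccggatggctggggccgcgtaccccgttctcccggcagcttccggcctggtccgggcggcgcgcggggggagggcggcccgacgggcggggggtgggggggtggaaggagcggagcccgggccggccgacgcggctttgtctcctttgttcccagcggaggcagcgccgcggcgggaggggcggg
Sema3c (chr5:17574566-17574865, plus strand): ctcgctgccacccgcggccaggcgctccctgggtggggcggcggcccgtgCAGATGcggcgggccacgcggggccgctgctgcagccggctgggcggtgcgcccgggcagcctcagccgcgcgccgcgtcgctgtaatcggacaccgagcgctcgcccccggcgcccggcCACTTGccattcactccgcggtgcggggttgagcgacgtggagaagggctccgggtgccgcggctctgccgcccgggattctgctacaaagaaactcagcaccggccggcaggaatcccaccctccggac
Of the 8 covered windows 5 held an E-box. The E-box of the inner Plxnb2 start was CAGGTG, with its first base at −201 from the start site, that of Sema4g was CAGCTG at −52 and that of Nrp2 was CACATG at 27. Sema3c had CAGATG at −200 and CACTTG at −80. The region's summit lay at −66 in Sema4g, at 9 in Nrp2 and at −177 in Sema3c, so in each of these an E-box and the summit lay within the same window. At the inner Plxnb2 start the summit lay outside the window, at 822. The peaks of OE libraries 1 and 4 there did not reach the window. Plxna2, Plxnb1 and the outer Plxnb2 start had no E-box in the window and were covered all the same. Their summits lay outside the windows, at 1573, −332 and 83. Only the peaks of OE libraries 2 and 3 reached the Plxna2 window, those of OE libraries 1 and 4 beginning downstream of it at 194621011 and 194621181. Plxnc1, whose window is not printed, had CAGTTG at −143 and the summit outside the window, at −440. In the 37 windows 56.8% held CANNTG, against 69.0% of all windows, 64.4% of the 2889 windows covered by a region and 69.8% of the others. For the form CATCTG or CAGATG the shares were 5.41% here and 14.6% of all windows, for CAGCTG 16.2% and 15.6%, and for CACCTG or CAGGTG 13.5% and 19.7%. CATATG and a pair of E-boxes set 5 bases apart were in none of the 37 windows and in 3.19% and 0.66% of all. Covered windows over all genes had a median GC content of 69.0% and all windows 56.3%, and the part of base composition in these shares was not tested.

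Among the secreted class 3 semaphorins, 4 of 7 genes had a region, with 5 regions in all. The share among genes of like territory was 41.8%. Sema3f, whose product repels axons and crest cells through neuropilin 2, had the one with the highest mean percentile. It lay 6618 bp outside the gene (chromosome 9, 107716164 to 107717662, mm10), with Rbm5 as the next gene 23402 bp away. Its folds were 51.9, 166, 154 and 36.8 in OE libraries 1 to 4, from 103, 1060, 965 and 80 fragments at the summit. They ranked at percentiles 96.2, 99.6, 99.6 and 94.7, so the site was among the top peaks of each OE list. A region inside Sema3f (107706104 to 107711157) was the widest of the family at 5054 bp, and the summits of its highest peaks in the 4 libraries lay up to 3154 bp apart. The highest folds there were 78.9, 27.9, 33.4 and 59.0, but they came from separate sites. Those of OE libraries 1 and 4 had summits at 107710079 and 107710071, and those of OE libraries 2 and 3 at 107706925 and 107706929. At the former site OE libraries 2 and 3 had other peaks with folds of 11.3 and 13.8, below OE libraries 1 and 4. At the latter site OE libraries 1 and 4 had no peak.

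The other class 3 genes had weaker or no regions. Sema3a, the classic repellent ligand of neuropilin 1, had a region 537 bp inside the upstream end of its gene model (chromosome 5, 13124860 to 13125920). Its folds were 21.0, 65.7, 35.1 and 14.53, and the RefSeq start in the promoter table lay 271425 bp away from it. The region of Sema3e, the ligand of plexin D1, lay 14084 bp inside the gene and had folds of 10.1, 47.2, 43.4 and 9.03. OE libraries 2 and 3 were higher at both genes and did not overlap with OE libraries 1 and 4. This order is common. Over all genes 9.44% of regions more than 1 kb from a start ranked higher in OE libraries 1 and 4. Sema3c, a ligand of both neuropilins known for its part in the outflow tract of the heart, showed the opposite order. Its promoter region had folds of 56.9, 5.02, 4.45 and 17.7 in OE libraries 1 to 4, with summits within 42 bp. This region was lost when peaks had to reach a −log10 q of 10 and when the lists were of equal length. Sema3b and Sema3g had peaks in OE libraries 2 and 3 alone, with folds of at most 10.5 and 4.86. Sema3d had 1, 6, 1 and 0 peaks in OE libraries 1 to 4, and no merged region there was shared by more than 1 library.

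Of the transmembrane class 4, 3 of 6 genes had a region, against 30.5% of genes of like territory. Sema4d, a ligand of plexin B1, had 3. The region 3164 bp inside the gene had folds of 13.97, 32.3, 31.3 and 8.17. The region at its inner RefSeq start, 171 bp downstream of it, had 10.5, 17.4, 17.6 and 8.63. The region 281 bp inside the upstream end of the gene model had 17.0, 4.70, 5.88 and 20.4. OE libraries 2 and 3 were therefore the higher ones at the first and second of these sites and the lower ones at the third. Sema4g had a region over its start with folds of 13.97, 7.21, 10.0 and 11.8, and Sema4f over its start with 5.49, 5.80, 7.31 and 9.08, the lowest mean percentile of the 36 (47.1). Sema4b and Sema4c had peaks in OE libraries 2, 3 and 4, with a site shared by all 3, and none in OE library 1. At the start of Sema4c these folds were 7.52, 11.6 and 6.36. Sema4a had peaks in OE libraries 2 and 3 alone, with a highest fold of 5.49.

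Class 5 semaphorins carry thrombospondin repeats in their outer part and act on axons as attractants or repellents. Sema5a held the region with the highest mean percentile of fold in the family, 79486 bp downstream of its start and inside the gene body (chromosome 15, 32323416 to 32324834). Folds there were 68.9, 205, 139.8 and 47.2 in OE libraries 1 to 4, from 137, 1304, 879 and 103 fragments at the summit. In OE library 2 this was the highest fold of the family, while in OE libraries 1, 3 and 4 a region of Sema3f was higher. The percentiles were 97.8, 99.7, 99.5 and 96.5, and the summits of the 4 libraries lay within 16 bp of each other. A further Sema5a region, 123205 bp downstream of the start, split the libraries. Its folds of 57.4 and 29.9 in OE libraries 2 and 3 ranked at percentiles 98.4 and 96.1, and its folds of 4.99 and 7.26 in OE libraries 1 and 4 at 7.62 and 30.5. The paralogue Sema5b had peaks in all 4 OE libraries (4, 24, 16 and 2) and no reproducible region. The 1 site there that the 4 OE libraries shared lay over its start (chromosome 16, 35540288 to 35543077), with folds of 6.23, 7.19, 6.79 and 7.45, and a KO input peak with a fold of 4.11 overlapped it.

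In class 6, whose members signal through plexins of class A, 3 of 4 genes had a region, against 39.2% of genes of like territory. Sema6a had 3. The strongest, inside the gene (chromosome 18, 47361987 to 47363024), had folds of 64.4, 122, 77.6 and 39.0, all above percentile 95. The region 870 bp from one end of the gene had 22.96, 13.6, 13.3 and 9.53, from summits up to 1248 bp apart. A region 62389 bp outside the gene had 7.49, 21.0, 32.3 and 5.45. Sema6d had a region 12243 bp before its inner RefSeq start with folds of 12.5, 33.1, 25.6 and 8.63. Its other region, 43446 bp before that start, had 34.4, 4.55, 6.52 and 29.1, with OE libraries 1 and 4 the higher ones. The summits there lay up to 551 bp apart. The region of Sema6b, 308 bp downstream of its start, had 25.0, 3.92, 3.66 and 13.2, from summits up to 940 bp apart. Sema6c had peaks in all 4 libraries (2, 3, 5 and 2), but no merged region there joined more than 2 of them. The lipid-anchored Sema7a, a ligand of plexin C1 and integrins, had a region of 3 libraries 738 bp downstream of its start, with folds of 13.5, 5.09 and 10.9 in OE libraries 1, 3 and 4.

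**Figure D3:**
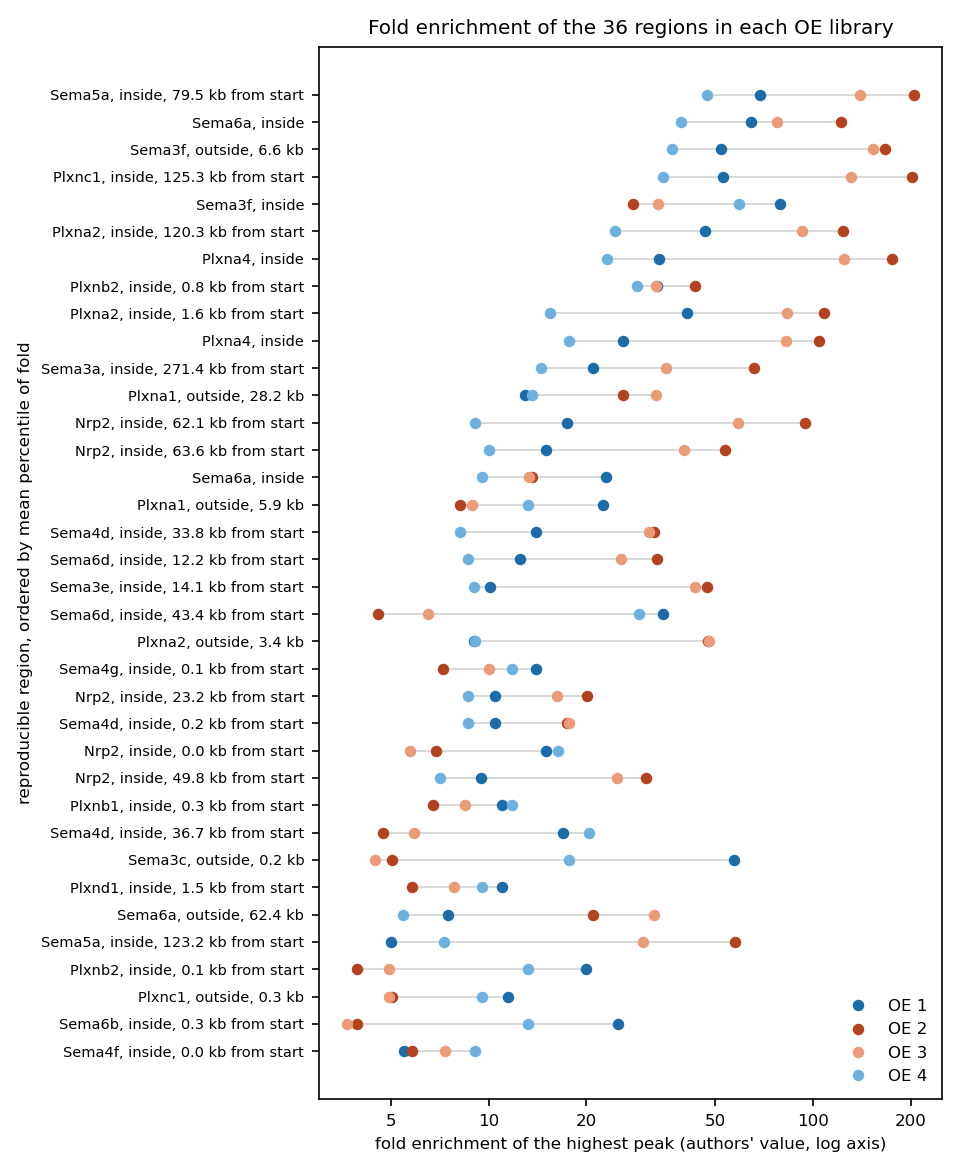
Fold enrichment of the highest peak (x axis, log scale) of each OE library (colours) in the 36 reproducible regions (rows, ordered by mean percentile of fold); labels give the gene, whether the region's summit lay inside or outside the gene body, and its distance from the gene's nearest RefSeq start (where a window was given) or, for a region outside, from the body. Most strong regions at the top have their highest folds in OE libraries 2 and 3, up to 205 at Sema5a. The region inside Sema3f is an exception, and its points come from separate sites. Summits also lay apart in some weaker regions, by up to 940 bp in Sema6b and 1248 bp in a region of Sema6a. Several weak regions over starts, such as Sema3c and Sema6b, have their highest folds in OE libraries 1 and 4.

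Among the receptors, the class A plexins, which transduce class 3 and class 6 signals, had a region in 3 of 4 genes and held 7 regions. The share among genes of like territory was 44.7%. Plxna2 had 3. The region 120254 bp downstream of its start (chromosome 1, 194739461 to 194740872) had folds of 46.4, 124, 92.5 and 24.5. The region over its start, with its summit 1573 bp downstream, had 40.9, 108, 83.0 and 15.4, and the region 3423 bp upstream had 8.98, 47.3, 47.8 and 9.08. At each of these 3 sites OE libraries 2 and 3 were higher than OE libraries 1 and 4. That is the order of the median folds over all genes away from starts. Plxna4, a receptor in sensory and sympathetic axons, had 2 regions inside its body (chromosome 6, 32211640 to 32213559 and 32448458 to 32449927). Folds at the first were 33.4, 176, 125 and 23.2 and at the second 26.0, 104, 82.8 and 17.7. The 2 regions of Plxna1 lay 28171 and 5854 bp outside the gene, with Gm40415 the next gene 73213 and 50896 bp away. Folds at the farther one were 13.0, 26.0, 32.7 and 13.6, and at the nearer one 22.5, 8.15, 8.90 and 13.2. Plxna3, on the X chromosome, had peaks in OE libraries 2 and 3 alone, with folds of at most 6.90.

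The other plexins had regions at 4 of 5 genes. The share among genes of like territory was 21.7% for class B, 58.0% for class C and 28.8% for class D. Plxnc1, the receptor of Sema7a, had its strongest region 125256 bp downstream of its start (chromosome 10, 94818761 to 94820167). The folds of 52.9, 202, 131 and 34.5 there came from summits within 8 bp, the smallest spread of the 36 regions. A weaker region, with its summit 440 bp upstream of the start, had 11.5, 5.02, 4.93 and 9.53. Plxnb2, which takes part in neural tube closure, had a region over its inner RefSeq start (chromosome 15, 89172555 to 89174448), with the summit 822 bp downstream of it. Its folds differed less between libraries than those of the 7 sites ranked above it, at 32.9, 43.3, 32.9 and 28.6. Its percentiles were 91.5, 97.7, 96.6 and 91.6, and by percentile it did not differ less than each of those sites. The region over the outer start had 19.96, 3.92, 4.93 and 13.2. Plxnb1, the receptor of Sema4d, had a region over its start with folds of 11.0, 6.74, 8.42 and 11.8. Plxnd1, a receptor in blood vessels, had one 1523 bp downstream of its start with 11.0, 5.80, 7.79 and 9.53. Summits of the 4 libraries lay up to 687 bp apart at Plxnb1 and 585 bp at Plxnd1. Plxnb3 had 1 peak in each of OE libraries 2 and 3, with folds of 4.55 and 4.61.

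The neuropilin paralogues differed in their regions. Nrp2 held 5 in a territory of 246 kb, and Nrp1 held none in 337 kb. With all 4 OE libraries required, 5 was the highest count of the family, but without OE library 4 Sema4d and Sema6a had 5 as well. With 2 libraries required, Sema5a had 17 and Plxna4 16 against 15 for Nrp2. One Nrp2 region lay over the start, with its summit 9 bp downstream and folds of 15.0, 6.90, 5.72 and 16.3. The others lay inside the body, 23239, 49755, 62055 and 63636 bp downstream of the start. In this order their folds were 10.5, 9.47, 17.5 and 15.0 in OE library 1 and 20.1, 30.6, 94.3 and 53.4 in OE library 2. In OE library 3 they were 16.2, 24.8, 58.6 and 39.9, and in OE library 4 they were 8.63, 7.07, 9.08 and 9.99. OE libraries 1 and 4 had the higher folds at the start and the lower folds at all 4 inner sites. Over all genes the median folds had the same order at starts and away from them. At Nrp1 OE libraries 1 and 4 had no peak, and the 9 and 8 peaks of OE libraries 2 and 3 had folds of at most 9.09 and 6.83. All of these lay below the weakest inner Nrp2 region in the same libraries, with 20.1 and 16.2. The Nrp2 region at the start, with 6.90 and 5.72, lay below the highest Nrp1 peaks. Nrp2 peaks outside its regions went down to 3.13 and 3.34 in these libraries. The difference between the paralogues was not tested.

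**Figure D4:**
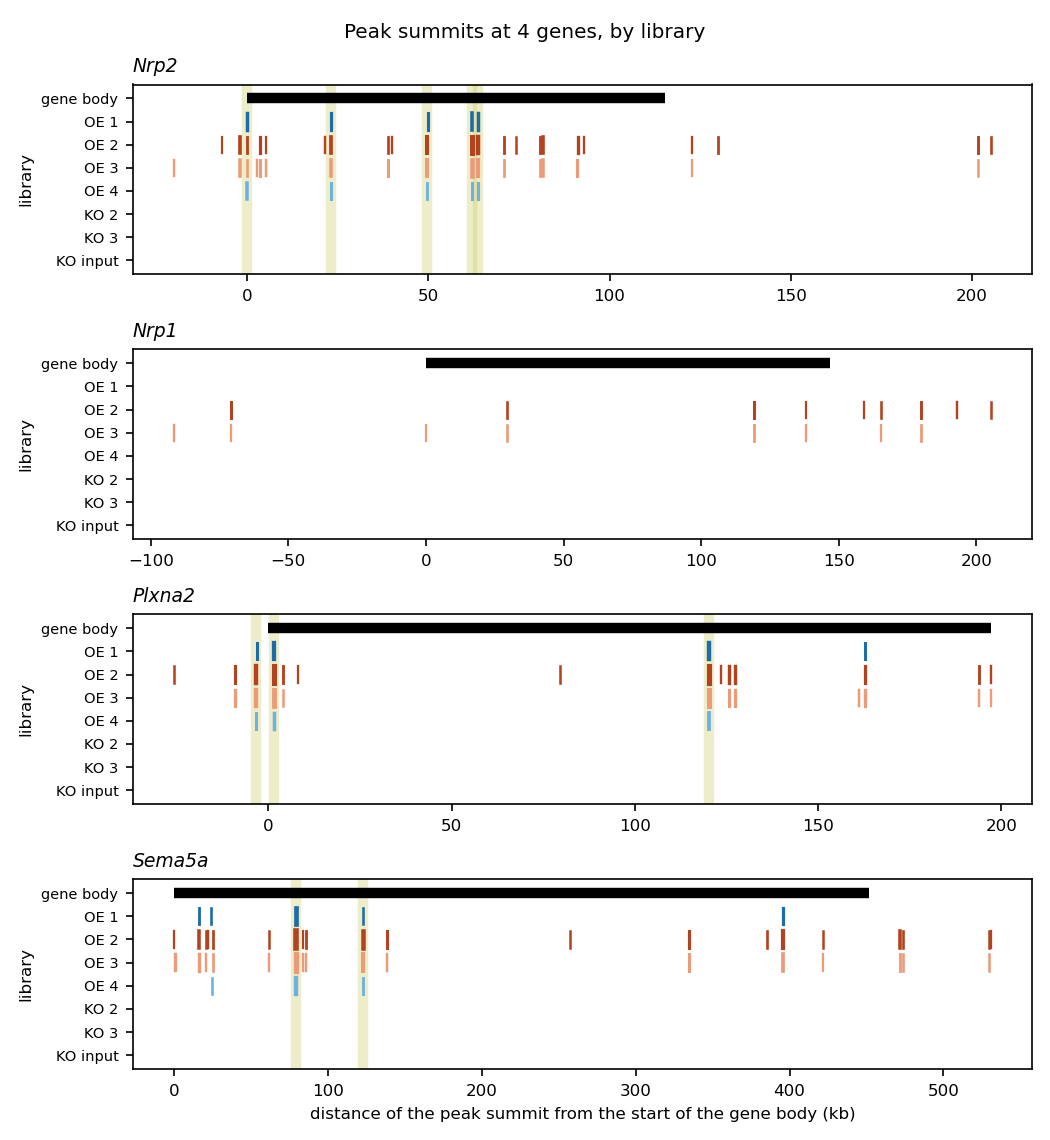
Peak summits of each library (rows) at Nrp2, Nrp1, Plxna2 and Sema5a, against the distance in kb from the start of the gene body (black bar); line width grows with log10 of fold, and pale bands mark reproducible regions. Nrp2 has 5 bands and Nrp1 none, and the KO rows are empty at all 4 genes.

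The regions of this family fell into sites at starts and sites away from them. Among the 27 regions of genes with a RefSeq window, 10 (37.0%) had their summit within 1 kb of a start of their own gene, against 37.6% of the 7431 such regions over all genes. At starts the median folds were 14.47, 6.27, 6.52 and 12.5 in OE libraries 1 to 4, and away from starts they were 15.0, 47.3, 35.1 and 9.53. Over all genes they were 17.97, 6.27, 6.67 and 13.2 at starts and 13.97, 28.1, 24.5 and 9.99 away from them. A start here is one in the promoter table. The Sema4d and Sema3a regions near the upstream ends of their gene models are therefore counted as away from starts. The Plxna2 region with its summit 1573 bp downstream is counted so as well. By fold, OE libraries 1 and 4 both lay above OE libraries 2 and 3 at 7 of 10 regions at starts, and both below at 1. By percentile within each list they were above at 4 and below at 5, so fold and rank differed there. Away from starts they were below at 14 of 17 regions by fold and at 15 by percentile. These counts of both above or both below were not taken over all genes. The mean percentile in OE libraries 1 and 4 exceeded that in OE libraries 2 and 3 at 5 of 10 regions at starts and at 2 of 17 others. Of these 2, 1 was the Sema4d region near the upstream end of its gene model and 1 lay in Sema6d. Over all genes the mean percentile was higher in OE libraries 1 and 4 at 60.2% of regions at starts and 9.44% of the others. Whether the family differs from other genes in this was not tested. Depth moved with it, since OE libraries 1 and 4 are those of low background, and its part was not tested. Over all 36 regions the median of the mean percentile was 74.1 and the range 47.1 to 98.4, and over all 10375 reproducible regions the median was 71.5. Summits of the 4 libraries lay within 100 bp at 20 of 36 regions (55.6%) and at 53.0% of all. In the others the folds set side by side can come from peaks at separate positions.

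**Figure D5:**
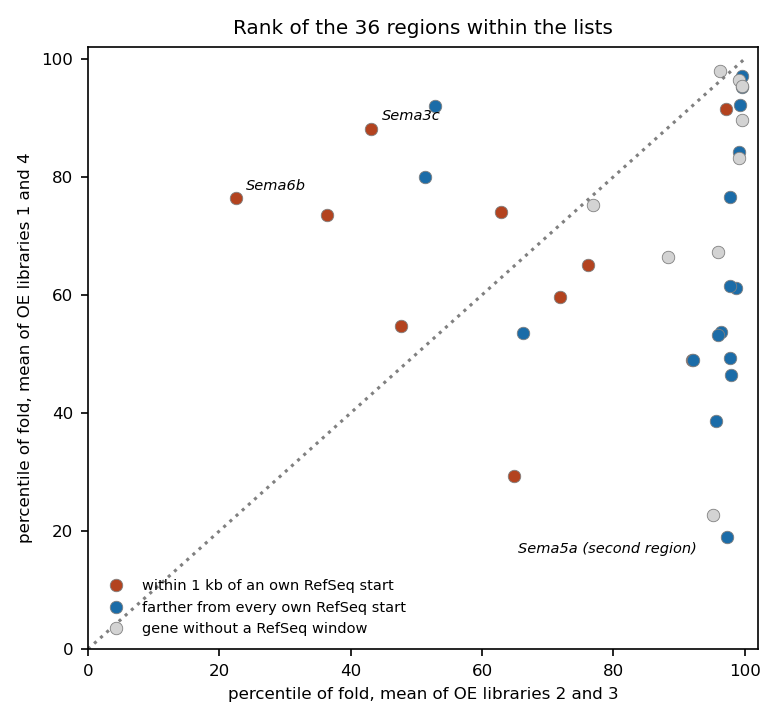
Mean percentile of fold in OE libraries 1 and 4 (y axis) against that in OE libraries 2 and 3 (x axis) for the 36 regions, coloured by distance to a RefSeq start of the same gene; the dotted line marks equal ranks. Regions away from starts lie mostly below the line, 15 of 17, and those at starts on both sides of it. Over all genes 9.44% of regions away from starts and 60.2% of those at starts lay above it.

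Other genes of the pathway were taken from a list of 37 co-receptors, partner ligands and effectors of semaphorin signalling. The list was likewise chosen with earlier results of these data known. Of these 20 had a region (54.1%), against the 30.3% of all genes and 35.6% for genes of like territory, and 17 had none. Farp2, a Rac activator bound to plexin A1, ranked first with folds of 42.9, 46.7, 42.4 and 22.2 in OE libraries 1 to 4. The kinase gene Fyn had 4 regions, and its best had 36.4, 14.6, 11.4 and 21.3. Pak1, an effector kinase of Rac, had 22.5, 58.0, 33.1 and 13.6, and Erbb2, a receptor kinase that joins with plexin B receptors, had 18.0, 83.1, 58.2 and 13.2. The first 2 of the list in alphabetical order without a region were Arhgef11 and Arhgef12. Of other guidance families, Eph receptors and ephrins had a region in 13 of 22 genes, led by Epha3 and Efna5, and the Slit, Robo and netrin genes with their receptors in 12 of 17, led by Ntn1 and Slit1. These shares, 59.1% and 70.6%, lie on both sides of the 61.3% found here. Among genes of like territory the shares were 38.6% for the Eph list, 44.8% for the Slit list and 38.9% for the family. The differences were not tested.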

How the data were processed

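TWIST1 ChIP-seq of 4 OE and 2 KO libraries and 1 KO input was analysed, with groups taken from the sample titles. The submitters' processing notes name MACS2, BWA, Trimmomatic and Picard as tools and mm10 and GRCm38.p5 as builds. Neither versions and settings nor the control given to the peak caller were stated in the sources used here. The deposited lists, 1 per library, hold the authors' fold enrichment (a linear ratio) and the authors' −log10 of the p-value and q-value. Every deposited q-value was at most 0.01.

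Lists were read with Python 3.11.15, pandas 2.3.3, numpy 2.4.6 and scipy 1.17.1 and drawn with matplotlib 3.10.9, on 21 main chromosomes with positions counted from 1. OE peaks sharing at least 1 bp were merged into 119237 regions. All 4 OE libraries shared 10952, and 577 of these with a KO or input peak were left out. A region's summit is the median over libraries of the summit of the highest peak. A region inside several genes was given to each. The summit pileup and background were solved from fold and p-value as a whole number of fragments, which succeeded for 98.4% or more of every list (tolerance 0.01 or 0.1%). Gene positions came from RefSeq (GRCm38.p6, whose main chromosomes have mm10 coordinates), and territories were measured on a grid of 500 bp. Merging and assignment were tested on simulated data.

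The members and lists were chosen with earlier results of these data known. Every member is named; the first 8 by mean percentile of fold of their best region, and Sema5b, were fixed to be given library by library. Alternatives covered the q-value limit, the libraries required, summit distance, list length, distance to the gene and leaving out each ChIP library.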

Additional observations from a re-analysis of the deposited data

Results flagged for a closer look

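The number of peaks at Sema3d stood apart in 1 of the 4 OE libraries. OE library 2 had 6 peaks there, and OE libraries 1, 3 and 4 had 1, 1 and 0. The gap to the nearest of the others was 0.833 of the range, above Dixon's 95% critical value for 4 samples. Chance alone marks about 1 in 20 groups of 4 values that share 1 expected level. These counts were not scaled for list length, and OE library 2 has the longest list, so that rate need not hold here. The counts of the 31 genes and the folds of the 36 regions were all screened in this way.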

How the results depend on the processing

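Of the 19 genes with a region, all 19 kept one when any single ChIP library was left out. The count ran from 19 to 21, against 30.3% to 40.8% of all genes. Leaving out a library only loosens the rule, so a region shared by all 4 OE libraries passes again almost by construction. This retention is therefore no test of stability. The count was 30 with at least 2 of 4 OE libraries or with OE libraries 2 and 3 alone, Sema3d being the gene without; 75.0% and 74.4% of all genes had a region then. It was 13 with equal list lengths (Sema3c, Sema4f, Sema4g, Sema6b, Plxnb1 and Plxnd1 lost theirs), 14 with summits within 100 bp (Sema4f, Sema6b, Plxna1, Plxnb1 and Plxnd1), 16 with a −log10 q of at least 10 (Sema3c, Sema4f and Sema6b) and 17 inside gene bodies alone (Sema3c and Plxna1), against 15.7%, 16.8%, 21.7% and 21.2% of all genes. Regions numbered 58 with at least 3 of 4 libraries, 211 with at least 2, 204 with OE libraries 2 and 3 alone, 20 with summits within 100 bp and 22 with equal list lengths, and 36 to 53 with a library left out, 53 being without OE library 4. Without that library the count rose from 3 to 5 at Sema4d and Sema6a, from 2 to 4 at Sema3f, Sema5a, Sema6d and Plxna4, from 1 to 2 at Sema6b and from 0 to 2 at Sema5b. Without OE library 1 it rose from 1 to 2 at Sema3a and Sema3c and from 0 to 1 at Sema4b and Sema4c, and without OE library 2 from 0 to 1 at Sema7a. Pathway genes with a region numbered 34 with at least 2 of 4 libraries and with OE libraries 2 and 3 alone, 8 with summits within 100 bp and 10 with equal list lengths, and 20 to 24 with a library left out. The shares of all genes given above are those to read them against, and 8 of 37 is near the 16.8% of that setting. Part of these changes follows from the construction (fewer or more peaks admitted); the cause was not tested further. The difference between OE and KO in genes with a peak ran from 26.0 to 28.7 with a library left out. With the replicate numbers 2 and 3 as a block it was 31 (p = 0.5 by exact sign permutation, the smallest 2 pairs allow); nothing in the labels says that a number pairs libraries. Sema5b also gained a region when regions with an input peak were kept. OE libraries 1 and 4 had low background, and the part of depth in which sites all 4 libraries shared was not tested.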

Other observations

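Peaks of OE libraries 2 and 3 alone, merged in the same way and without KO or input peaks, gave 204 regions at 30 of the 31 genes, and those of all 4 libraries gave 36 at 19. Over all genes the same settings gave 72156 regions with 74.4% of genes and 10375 regions with 30.3%, so the fall is no result about this family. Sema3e, which has 1 reproducible region, had 19 and 10 peaks in OE libraries 2 and 3 and 1 in each of OE libraries 1 and 4. Sema5b, with no reproducible region, had 24 merged OE regions, and 14 of these held peaks of both OE libraries 2 and 3. Sema4b had 13 merged regions, 10 of them in both of these libraries, and Nrp1 had 11, 6 of them in both. Sema3d had 8 merged regions in a territory of 405.5 kb, and none was found in both.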
